A study of Mus musculus with 18 samples.

Results

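The 10 genes described here are 7 matrix metalloproteinases (Mmp2, Mmp3, Mmp9, Mmp10, Mmp13, Mmp14 and Mmp19) and 3 tissue inhibitors of metalloproteinases (Timp1, Timp2 and Timp3), chosen by symbol. They are 10 of the 35734 genes of a table that the authors deposited for mouse embryonic fibroblasts, which are connective tissue cells grown from embryos. The fibroblasts, of the line R26-M2rtTA on a C57BL/6 background, carried lentiviral vectors switched on by doxycycline. Both groups expressed Brn2 and Myt1l, and 1 group expressed Ikzf1 and Ikzf4 in addition. RNA was sequenced after 48 h from 3 libraries of each group, so that the comparison asks what Ikzf1 and Ikzf4 change in cells that already carry the neuronal factors. A further experiment, a multiome that reads chromatin accessibility in single nuclei, set 1 library labelled Ikzf1/4 beside 1 control library with mCherry from Muller glia of the retina (GLAST-CRE ERT2; RosaYFP, on C57BL/6). The labels give both of them tamoxifen and an age entry of 14 days, and name no tissue, line or strain for the Ikzf1/4 library.

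Matrix metalloproteinases are zinc-dependent enzymes that cleave collagens, proteoglycans and other proteins of the extracellular matrix. Most are secreted as inactive precursors and are switched on when other proteases remove a propeptide, and some, such as Mmp14, sit in the cell membrane. The Timp proteins bind the active site and block it. Fibroblasts are a main source of both in connective tissue, where they serve the turnover of matrix in development and wound repair.

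The 6 RNA libraries held 34966344 to 44270426 estimated reads. Ikzf1 and Ikzf4 were raised by 7.76 (SE 0.17) and 8.54 (SE 0.15) on the log2 scale of the authors' deposited table in the group that received them. Of 10 fibroblast markers, 7 were lower with Ikzf1 and Ikzf4 in the authors' deposited table, among them Col3a1, Postn and Vim, with a median log2 fold change of -0.38 over the 10. Over all genes tested there, 15.4% were lower and 15.3% higher. All 8 macrophage markers had RNA in these cultures, and 1 of them, Mrc1, was lower in the authors' deposited table (-0.44, SE 0.11). Of the 6 endothelial markers none was called in the authors' deposited table, with mean normalised counts from 5.82 for Tie1 to 132.3 for Pecam1. Of 6 epithelial markers, 3 had an adjusted p there and Epcam was higher (0.64), of 7 chondrocyte and osteoblast markers 5 had one and Sox9 (0.37) and Ibsp (0.62) were higher, and of 6 neuronal markers 5 had one and Tubb3 was lower (-0.42). The labels do not say that the 3 libraries of a group came from separate cultures, so the p-values measure the spread between these libraries, which may be technical. In bulk RNA, fewer cells of a type and less RNA per cell cannot be told apart.

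Per-library values came from transcripts. The files used here hold no list of which transcript belongs to which gene, so transcripts were matched to genes by arithmetic: the mean normalised count that the authors' table gives for a gene was rebuilt from the estimated counts of 1 transcript or of a pair. The match was accepted where a single candidate reached the deposited mean within a relative 2e-09. A pair (Mmp9, Timp1 and Timp2) also had to meet the deposited log2 fold change. For this the deposited value was first divided by a factor for its pull toward 0, estimated from its SE. It gave transcripts for 6 of the 10 members (Mmp3, Mmp9, Mmp10, Mmp13, Timp1 and Timp2). For Mmp2, Mmp14, Mmp19 and Timp3 no single match was found, and their values are those of the authors' table alone. As a check, 1384 genes with a mean of at least 100 were matched by 1 transcript without use of their fold change. For 98.6% of them the log2 ratio of normalised counts, multiplied by the same factor, lay within 0.01 of the deposited log2 fold change. None of the 6 matched members is among these genes, since Mmp3, Mmp10 and Mmp13 have lower means and the other 3 were matched to pairs.

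With Ikzf1 and Ikzf4, 4 of the 10 members were lower (Mmp9, Mmp13, Mmp14 and Timp3) and 2 were higher (Mmp19 and Timp2) at a DESeq2 adjusted p under 0.05 in the authors' deposited table, where 30.6% of the 16757 tested genes were called. By direction, 15.4% of the tested genes were lower and 15.3% higher. The other 4 members (Mmp2, Mmp3, Mmp10 and Timp1) were not called. The median log2 fold change of the 10 members was -0.23 in the authors' deposited table, beside -0.0004 over all tested genes. Among the 7 proteases 3 were lower and 1 was higher, and among the 3 inhibitors 1 was lower, 1 was higher and 1 was not called. The deposited fold changes were pulled toward 0 where counts were low. For each gene matched to 1 transcript, the deposited log2 fold change was divided by the log2 ratio of normalised counts. Genes whose ratio was near 0 or extreme were left out. The median was 51.1% at a mean of 20 to 50 and 69.8% at 50 to 100. It was 88.1% at 100 to 1000 and 97.0% at 1000 or more.

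**Figure D1:**
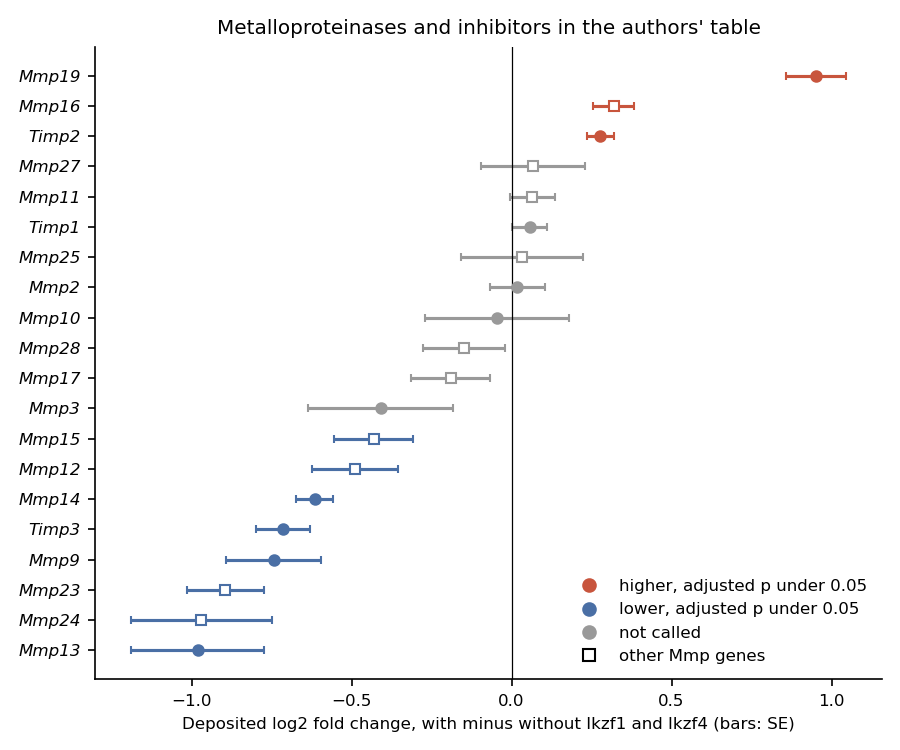
Log2 fold change (with minus without Ikzf1 and Ikzf4, horizontal axis, bars SE) of each Mmp and Timp gene with an adjusted p in the authors' deposited table, with filled circles for the 10 members and open squares for the other genes. Mmp19 lies farthest to the right at 0.95 and Mmp13 farthest to the left at -0.98, and grey symbols mark genes that were not called.

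Mmp13, Mmp3 and Mmp10 lie in 1 gene cluster on chromosome 9. Mmp13 is a collagenase that cuts fibrillar collagen, and Mmp3 and Mmp10 are stromelysins, which cut proteoglycans, fibronectin and other matrix proteins and can activate other metalloproteinases. All 3 genes have a match to the AP-1 motif, the binding sequence of Fos and Jun proteins, in their promoter, and AP-1 is a known activator of this gene group. The promoters are shown because these members of the cluster share the motif. They are RefSeq sequences of the plus strand of GRCm38.p6, 250 bases before to 50 bases after the start, with the match to TGANTCA in capitals.
Mmp13 (chr9:7272264-7272563): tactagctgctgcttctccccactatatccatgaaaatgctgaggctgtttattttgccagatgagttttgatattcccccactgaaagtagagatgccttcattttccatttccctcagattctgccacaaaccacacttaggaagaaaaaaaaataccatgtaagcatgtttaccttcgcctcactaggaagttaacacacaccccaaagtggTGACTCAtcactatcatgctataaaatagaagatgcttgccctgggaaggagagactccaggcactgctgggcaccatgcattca
Mmp3 (chr9:7445572-7445871): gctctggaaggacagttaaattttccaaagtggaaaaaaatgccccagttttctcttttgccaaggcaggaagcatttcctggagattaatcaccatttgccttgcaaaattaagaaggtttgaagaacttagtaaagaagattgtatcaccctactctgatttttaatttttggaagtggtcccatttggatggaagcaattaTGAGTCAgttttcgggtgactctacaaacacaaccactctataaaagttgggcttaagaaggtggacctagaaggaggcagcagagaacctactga
Mmp10 (chr9:7502092-7502391): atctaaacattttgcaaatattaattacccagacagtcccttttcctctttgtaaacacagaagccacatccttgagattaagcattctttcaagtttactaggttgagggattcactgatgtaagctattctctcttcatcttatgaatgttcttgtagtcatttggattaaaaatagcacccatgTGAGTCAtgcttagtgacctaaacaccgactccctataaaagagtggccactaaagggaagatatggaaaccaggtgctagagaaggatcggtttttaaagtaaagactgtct

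The first base of the match lies at -35 in Mmp13, -46 in Mmp3 and -63 in Mmp10, counted from the start at 1 with no position 0. TGANTCA, searched on both strands, occurs in 7.81% of the 32851 mouse promoters of the same length. It occurs in 8 of the 12 promoters of the Mmp cluster of chromosome 9, which stand for 8 of its 10 genes. RefSeq promoters were at hand for 7 of the 10 members, and Timp1, Timp2, Timp3 and Mmp14 had no match in this window. The core motif of Ikaros proteins, TGGGAA, searched on both strands, occurs in 25.6% of all promoters and in those of Mmp13 (first base at 8) and Timp1 (at -158). The PEA3 motif of ETS factors, AGGAAG, searched likewise, occurs in 35.4% of all promoters, at -109 and -62 in Mmp13 and at -183 in Mmp3. Among the other members it was found in Timp1 at -175, -99 and 41, in Timp3 at -204 and in Mmp14 at -209, and none was found in Timp2 or Mmp10. These matches describe the letters of the window and were not tested as binding sites.

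Mmp13 was lower with Ikzf1 and Ikzf4. Its level (ENSMUST00000015394.9) was 2.33, 1.46 and 2.28 TPM (the salmon level per transcript length and library size) in the libraries with Brn2 and Myt1l alone and 0.936, 0.608 and 0.849 TPM with all 4 factors. The groups did not overlap, and the lowest of the first group, replicate 2, still lay above every library of the other. The group levels were 2.02 ± 0.488 and 0.797 ± 0.170 TPM (SD, n = 3), from 350.1 and 136.3 estimated reads summed over the 3 libraries of each group. In edgeR's quasi-likelihood test per transcript the log2 fold change was -1.36 (SE 0.29, adjusted p 0.0466 over 43526 transcripts). Without any 1 of the 6 libraries the edgeR adjusted p was 0.0537 to 0.142, above the threshold, with a log2 fold change of -1.55 to -1.20. The authors' deposited table gives -0.98 (SE 0.21, DESeq2 adjusted p 2.06e-05) at a mean normalised count of 80.4.

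Mmp3 lay lower in every library with Ikzf1 and Ikzf4 but did not pass either test. Its level (ENSMUST00000034497.7) was 0.795, 0.809 and 0.788 TPM without them and 0.433, 0.563 and 0.424 TPM with them. The groups did not overlap, which holds for 31.2% of the 43526 tested transcripts when judged in CPM (reads scaled to library size). These levels rest on few reads, 16.0 to 32.0 estimated reads per library. The edgeR log2 fold change was -0.77 (SE 0.29, adjusted p 0.185). The authors' deposited table gives -0.41 (SE 0.23, DESeq2 adjusted p 0.168).

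Mmp10 showed no consistent direction. Its level (ENSMUST00000034488.3) was 1.04, 0.850 and 0.673 TPM without Ikzf1 and Ikzf4 and 0.769, 0.503 and 1.23 TPM with them, so that the highest and the lowest of the 6 libraries both carried the added factors. With 17.0 to 44.0 estimated reads per library, the edgeR log2 fold change was -0.06 (SE 0.40, adjusted p 0.961). Its sign turned without Brn2 and Myt1l replicate 1 (0.09) and without replicate 2 of the group with Ikzf1 and Ikzf4 (0.20). The authors' deposited table gives -0.05 (SE 0.23, DESeq2 adjusted p 0.915).

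**Figure D2:**
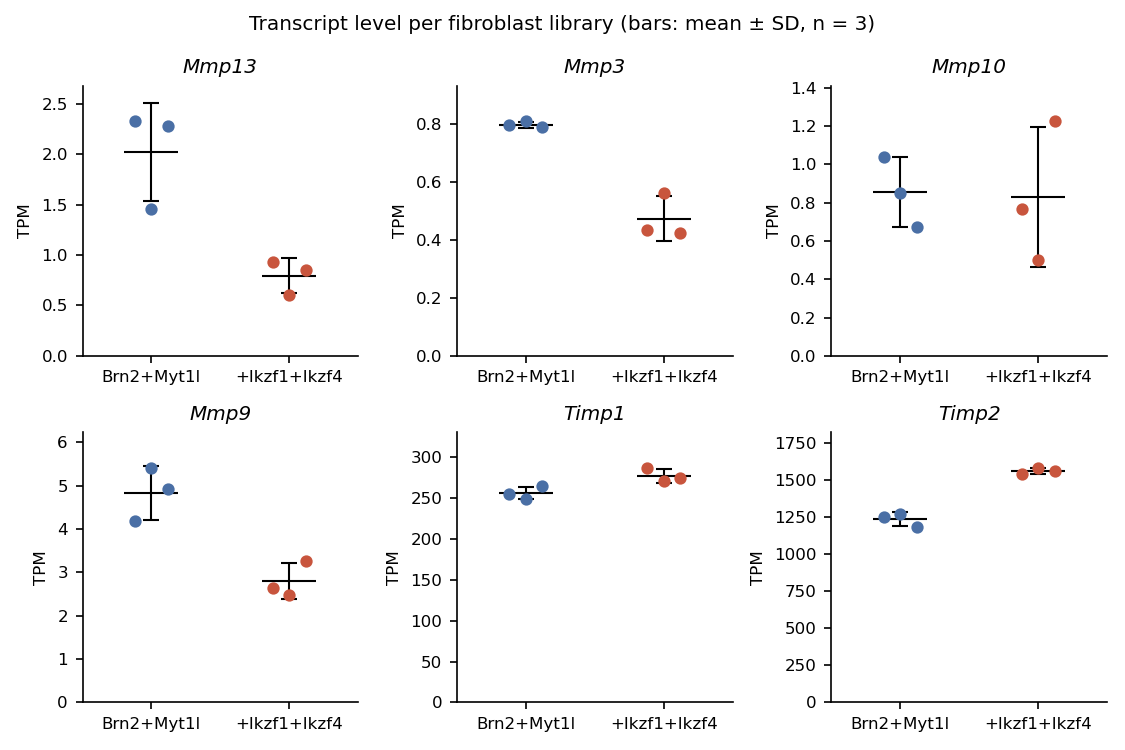
Level in TPM (vertical axes, from 0) of the 6 members matched to transcripts in each of the 3 libraries per group, as points, with the mean and SD as bars. Points of the groups lie apart for Mmp13, Mmp3 and Mmp9, lower with Ikzf1 and Ikzf4, and for Timp1 and Timp2, higher with them, while those of Mmp10 are mixed. Over all 43526 tested transcripts the groups lay apart for 15.1%, lower, and for 16.1%, higher. Those shares were taken in CPM per transcript, whereas the points are TPM per gene.

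The cluster of 10 Mmp genes on chromosome 9 runs from Mmp13 at position 7272514 to Mmp7 ending at 7699585 in GRCm38.p6. Of its genes, 2 were called in the authors' deposited table, both lower: Mmp13 and its neighbour Mmp12 at -0.49 (SE 0.13, DESeq2 adjusted p 0.00150). Over all genes tested there, 30.6% were called. Mmp3, Mmp10 and Mmp27 were tested and not called there, and differences between the genes of the cluster were not tested. The other 5 genes (Mmp1a, Mmp1b, Mmp7, Mmp8 and Mmp20) had no adjusted p in the authors' deposited table, with mean normalised counts from 0.331 for Mmp1a to 3.61 for Mmp8. Mmp8, the neutrophil collagenase, had 1.0, 2.0 and 2.0 reads without and 4.0, 4.0 and 9.0 reads with Ikzf1 and Ikzf4, counts too small to compare.

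**Figure D3:**
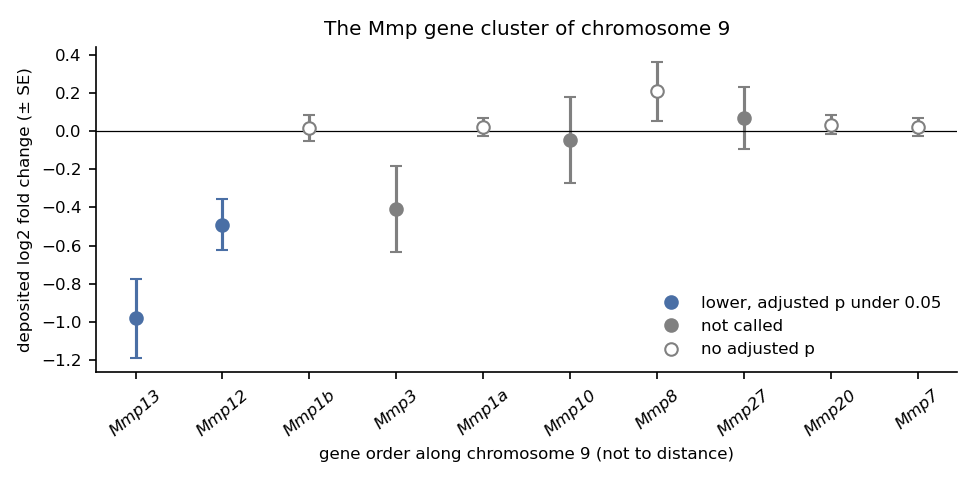
Deposited log2 fold change (vertical axis, bars SE) of the 10 Mmp genes of chromosome 9 in their order along the chromosome (horizontal axis, equal steps). Mmp13 and Mmp12 at the left end are called lower, at -0.98 and -0.49, and open circles are genes without an adjusted p.

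Mmp2 and Mmp9 are the gelatinases, which digest denatured collagen and type IV collagen of basement membranes. Mmp9 was lower with Ikzf1 and Ikzf4 and Mmp2 was not called, and the difference between these genes was not tested. Mmp9 (ENSMUST00000017881.2 with a trace of ENSMUST00000137626.1) was 4.18, 5.41 and 4.93 TPM with Brn2 and Myt1l alone and 2.65, 2.48 and 3.26 TPM with Ikzf1 and Ikzf4 added. Every library with the added factors lay under every library without them, at 2.80 ± 0.412 against 4.84 ± 0.621 TPM (SD, n = 3). For ENSMUST00000017881.2 the edgeR log2 fold change was -0.85 (SE 0.17, adjusted p 0.0432). Without any 1 of the 6 libraries the edgeR adjusted p was 0.0657 to 0.151, above the threshold, with a log2 fold change of -0.99 to -0.76. The authors' deposited table gives -0.74 (SE 0.15, DESeq2 adjusted p 4.85e-06). Mmp9 is also made by macrophages. The macrophage markers had a median log2 fold change of -0.02 in the authors' deposited table. Lyz2, the one of them matched to a transcript, stood at 436.1 to 583.4 TPM without and 499 to 545.9 TPM with Ikzf1 and Ikzf4, so its groups overlapped. Mrc1 (-0.44, SE 0.11) and Mmp12, the macrophage elastase (-0.49, SE 0.13), were lower in the authors' deposited table, as was Mmp9, and the part of macrophages in the fall of Mmp9 was not tested.

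Mmp2, which Mmp14 activates at the cell surface, was not called. Its log2 fold change in the authors' deposited table was 0.02 (SE 0.09, DESeq2 adjusted p 0.911), at a mean normalised count of 6720.

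Mmp14, the membrane-anchored collagenase MT1-MMP, was lower. The authors' deposited table gives a log2 fold change of -0.62 (SE 0.06, DESeq2 adjusted p 1.04e-25) at a mean normalised count of 11321, higher than that of 96.2% of tested genes. Mmp14 thus fell while Mmp2, its substrate, was not called, and the difference between them was not tested.

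Mmp19, a secreted protease with a broad range of matrix substrates, was the member with the largest rise. Its log2 fold change in the authors' deposited table was 0.95 (SE 0.09, DESeq2 adjusted p 4.94e-22) at a mean normalised count of 843.4. Mmp19 lies on chromosome 10 at 128790910 to 128800827 of GRCm38.p6, near Ikzf4 at 128630839 to 128669671, whose RNA here may include that of the vector. Of the genes between them, 6 were tested in the authors' deposited table (Suox, Rab5b, Pmel, Cdk2, Dgka and Pym1) and none was called, with DESeq2 adjusted p-values from 0.235 for Pmel to 0.922 for Suox. Over all tested genes 30.6% were called. A link between the rise of Mmp19 and its place near Ikzf4 was not tested.

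The inhibitors went in different directions. Timp2, which inhibits metalloproteinases and also takes part in the activation of Mmp2 by Mmp14, was the most abundant member matched to transcripts. It was at 1251, 1275 and 1187 TPM without Ikzf1 and Ikzf4 and at 1542, 1585 and 1564 TPM with them. The groups did not overlap, at 1238 ± 45.7 and 1564 ± 21.6 TPM (SD, n = 3). The authors' deposited table gives a rise of 0.28 on the log2 scale (SE 0.04, DESeq2 adjusted p 1.42e-09). With the reads of both transcripts summed, the edgeR log2 fold change was 0.20 (SE 0.05) and missed the threshold, at an adjusted p of 0.0602. These summed reads were not scaled to transcript length, whereas TPM and the rebuilt deposited mean were, so the measures are unlike.

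Of the Timp2 transcripts, the shorter one passed edgeR's test and the longer one did not. ENSMUST00000155707.2, of 718 nucleotides, was 323.9, 328 and 340.6 TPM without and 514, 548.6 and 523.6 TPM with Ikzf1 and Ikzf4. Its edgeR log2 fold change was 0.66 (SE 0.04, adjusted p 0.00285). It was the member transcript with the smallest edgeR p, and without any 1 library its edgeR adjusted p was 0.0122 to 0.0267. With the replicate number as a block the edgeR adjusted p was 0.0579, above the threshold. ENSMUST00000017610.9, of 3709 nucleotides, was 927.5, 947.1 and 846.3 TPM without and 1028, 1037 and 1040 TPM with them, again without overlap. Its edgeR log2 fold change was 0.17 (SE 0.05, adjusted p 0.105). The shorter transcript made up 25.9, 25.7 and 28.7% of the gene's TPM without and 33.3, 34.6 and 33.5% with the added factors. The share was 26.8 ± 1.67% and 33.8 ± 0.70% (SD, n = 3), with a two-sided exact permutation p of 0.1, the smallest that 3 against 3 allows. Salmon divides reads that fit several transcripts by estimation, so the split between transcripts of a gene is less certain than their sum.

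Timp1, an inhibitor that many cell types induce on inflammation and growth stimulation, was 254.7, 248.9 and 264.4 TPM without Ikzf1 and Ikzf4 and 286.9, 270.3 and 274.3 TPM with them. The groups did not overlap, but the step between them was small, from 256 ± 7.83 to 277.2 ± 8.63 TPM (SD, n = 3). Neither of its transcripts passed edgeR's test, with log2 fold changes of 0.07 (SE 0.06, adjusted p 0.594) for ENSMUST00000009530.4 and 0.16 (SE 0.05, adjusted p 0.122) for ENSMUST00000115342.9. The share of the latter was 34.2 ± 2.37% and 35.6 ± 0.72% of the gene's TPM (SD, n = 3, two-sided exact permutation p 0.4). Unlike for Timp2, the groups of these shares overlapped, from 32.4 to 36.9% without and 35.0 to 36.4% with the added factors. The authors' deposited table gives 0.06 (SE 0.05, DESeq2 adjusted p 0.483) for the gene.

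**Figure D4:**
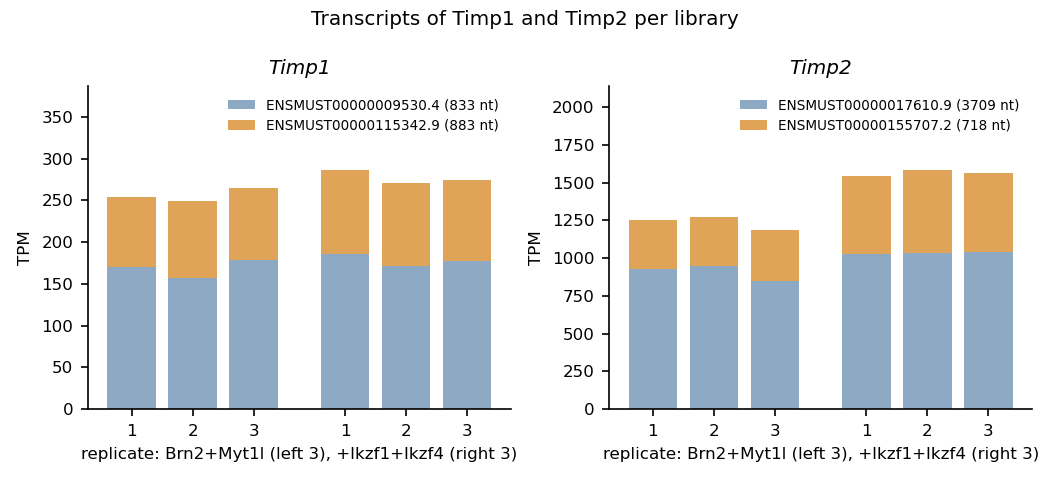
TPM (vertical axes, from 0) of the transcripts matched to Timp1 and Timp2, stacked for each of the 6 libraries, the left 3 bars with Brn2 and Myt1l alone and the right 3 with Ikzf1 and Ikzf4 added. In Timp2 the upper segment, the transcript of 718 nucleotides, grows from 323.9 to 340.6 TPM at the left to 514 to 548.6 TPM at the right, while both segments of Timp1 change little.

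Timp3, the inhibitor that stays bound to the matrix and also blocks proteases of the Adam and Adamts families, was lower. Its log2 fold change in the authors' deposited table was -0.71 (SE 0.08, DESeq2 adjusted p 1.32e-15). At a mean normalised count above that of 98.5% of tested genes it was among the most highly counted members, with Timp2 (99.9%) and Mmp14 (96.2%).

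Ordered by level per length, the inhibitors stood far above the proteases among the 6 members matched to transcripts. Mmp2, Mmp14, Mmp19 and Timp3 have no level per length and are not in this order. The mean normalised counts of Mmp14 (11321) and Mmp2 (6720), not scaled to length, were above that of Timp1 (4122). The order therefore does not speak for the proteases as a whole. In the libraries with Brn2 and Myt1l alone the order was Timp2, Timp1, Mmp9, Mmp13, Mmp10 and Mmp3, in TPM, and no neighbours in it overlapped except Mmp10 (0.854 ± 0.183 TPM) and Mmp3 (0.797 ± 0.0106 TPM, SD, n = 3). With Ikzf1 and Ikzf4, Mmp10 (0.832 ± 0.366 TPM) and Mmp13 (0.797 ± 0.170 TPM) overlapped. Mmp3 (0.473 ± 0.0775 TPM, SD, n = 3) lay under every library of Mmp13 but overlapped with Mmp10, whose replicate 2 (0.503 TPM) was under that of Mmp3 (0.563 TPM). Mmp13 thus moved from above Mmp10 to a level not separable from it.

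Over all members, edgeR called 3 of the 8 member transcripts tested, Mmp9 and Mmp13 lower and the shorter Timp2 transcript higher, where it called 7.11% of all 43526, 2.87% lower and 4.24% higher. DESeq2 on the same counts called 5 of the 8, where it called 17.3% of 43423 transcripts with an adjusted p, adding ENSMUST00000115342.9 of Timp1 and ENSMUST00000017610.9 of Timp2. Without any 1 of the 6 libraries edgeR called 1 of the 8, and 728 to 1701 transcripts in all instead of 3095.

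Over the libraries, the genes most like the shorter Timp2 transcript, among 1109 genes matched to 1 transcript with a mean of at least 5 CPM (reads scaled to library size), were Smim13 (r = 0.997), Pgr15l (r = 0.995) and Mrgpre (r = 0.994). Those most like Mmp9 were Nudt2 (r = 0.998), Cisd1 (r = 0.997) and Aldh5a1 (r = 0.990). These are Pearson correlations of log2(CPM + 1) over 6 libraries that fall into the groups compared and share their depth, and they are given as a description.

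Among the other Mmp and Timp genes, 10 of 17 had an adjusted p in the authors' deposited table, where 4 were lower and 1 was higher, with a median log2 fold change of -0.17. The shares over all tested genes were 15.4% lower and 15.3% higher. Mmp24 (-0.97, SE 0.22), Mmp23 (-0.89, SE 0.12), Mmp12 (-0.49) and Mmp15 (-0.43, SE 0.12) were lower and Mmp16 (0.32, SE 0.06) was higher in the authors' deposited table. Mmp15, Mmp16, Mmp17, Mmp24 and Mmp25 are membrane-type proteases like Mmp14, and of these 6 genes 3 were lower, 1 was higher and 2, Mmp17 (-0.19, SE 0.12) and Mmp25 (0.03, SE 0.19), were not called in the authors' deposited table. Mmp24 (ENSMUST00000029141.5) was 0.539, 0.847 and 0.681 TPM without and 0.209, 0.267 and 0.231 TPM with Ikzf1 and Ikzf4, without overlap, and its edgeR log2 fold change was -1.56 (SE 0.28, adjusted p 0.0304). As for Mmp9 and Mmp13, the call of Mmp24 was lost without any 1 library, at an edgeR adjusted p of 0.0567 to 0.109. Mmp15 also did not overlap, at 4.77 ± 0.768 and 3.58 ± 0.182 TPM (SD, n = 3), and its main transcript missed edgeR's threshold (-0.49, adjusted p 0.0896). Mmp17 overlapped, at 2.62 ± 0.269 and 2.36 ± 0.153 TPM (SD, n = 3). The authors' deposited table lists 23 Mmp genes, of which 7 were lower, 2 were higher, 8 were not called and 6 had no adjusted p.

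The plasminogen system makes plasmin, a protease that activates several metalloproteinase precursors. Of the 9 genes of it described here, 8 were tested in the authors' deposited table, where 2 were higher, 2 were lower and the median log2 fold change was 0.15. Beside them, 15.3% of all tested genes were higher and 15.4% lower. The serine protease inhibitors Serpine2 (0.69, SE 0.09) and Serpinb2 (0.62, SE 0.16) were higher in the authors' deposited table. Plat, the tissue plasminogen activator, was lower (-0.38, SE 0.10), as was the plasminogen receptor Plgrkt (-0.36, SE 0.09), in the authors' deposited table. Plau, the urokinase activator, and its receptor Plaur were not called there.

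Of 12 genes for activation and surface partners, 2 were higher and 2 lower in the authors' deposited table, with a median log2 fold change of -0.01. That is near the share over all tested genes, of which 15.3% were higher and 15.4% lower. Lrp1, a receptor that clears metalloproteinases and their complexes with inhibitors, was higher (0.52, SE 0.08), and so was Bsg, the metalloproteinase inducer basigin (0.16, SE 0.04), in the authors' deposited table. Itgb3 (-0.53, SE 0.09) and Cd44 (-0.27, SE 0.07), surface proteins that can hold metalloproteinases, were lower in the authors' deposited table. Furin, which cuts the propeptide of Mmp14, and Reck, a membrane-bound inhibitor, were not called there, at 0.07 (SE 0.06) and -0.08 (SE 0.06).

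The related Adam and Adamts proteases had 8 of 17 genes lower and 1 higher in the authors' deposited table, with a median log2 fold change of -0.25. Lower calls made up 15.4% of all genes tested there, and higher calls 15.3%. Adamts1 (-0.90, SE 0.09), Adamts4 (-0.88, SE 0.10), Adamts5 (-0.74, SE 0.06) and Adamts12 (-0.60, SE 0.07) had the lowest values of this list in the authors' deposited table. Adamts1, Adamts4 and Adamts5 are known to cleave proteoglycans, as are Adamts9 (0.19, SE 0.08) and Adamts15 (-0.15, SE 0.21), which were not called in the authors' deposited table. Timp3, the inhibitor of this family, was lower beside them. Adam17, the shedding enzyme of tumour necrosis factor, was higher there (0.36, SE 0.07).

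Among 16 matrix proteins that metalloproteinases cleave, 9 were lower and 1 was higher in the authors' deposited table, with a median log2 fold change of -0.26. For all tested genes the shares were 15.4% lower and 15.3% higher. Decorin (Dcn, -1.77, SE 0.08), Col3a1 (-1.29, SE 0.06), tenascin C (Tnc, -0.81, SE 0.05) and elastin (Eln, -0.65, SE 0.21) fell most in the authors' deposited table, and perlecan (Hspg2, 0.42, SE 0.14) was higher. The type IV collagens Col4a1 and Col4a2, substrates of the gelatinases, were not called there, at -0.07 (SE 0.04) each. Some of these genes, such as Col1a1 and Col3a1, are also fibroblast markers, and the part that the fall of the markers has in the protease results was not tested.

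Of 14 cytokines and growth factors known to induce metalloproteinases, 12 were tested in the authors' deposited table and 1, Tgfb3, was called, lower by a log2 fold change of -0.31 (SE 0.07). Among 15 transcription factors of the AP-1, ETS and Runx families 5 were higher and 3 lower there, with a median of 0.03. Across all tested genes, 15.3% were higher and 15.4% lower. Runx2, an activator of Mmp13 in bone, was higher (0.78, SE 0.12), as were Fos (0.49, SE 0.18), Fosl1 (0.31, SE 0.12) and Junb (0.27, SE 0.07), in the authors' deposited table. Etv4 (-0.57, SE 0.12), Etv1 (-0.38, SE 0.09) and Atf3 (-0.38, SE 0.14) were lower in the authors' deposited table. Mmp13 and Mmp3 have promoter matches to the motifs of both AP-1 and PEA3, and Mmp10 has a match to AP-1. In the same libraries Mmp13 was lower, and Mmp3 and Mmp10 were not called. A link between these factors and the members was not tested.

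**Figure D5:**
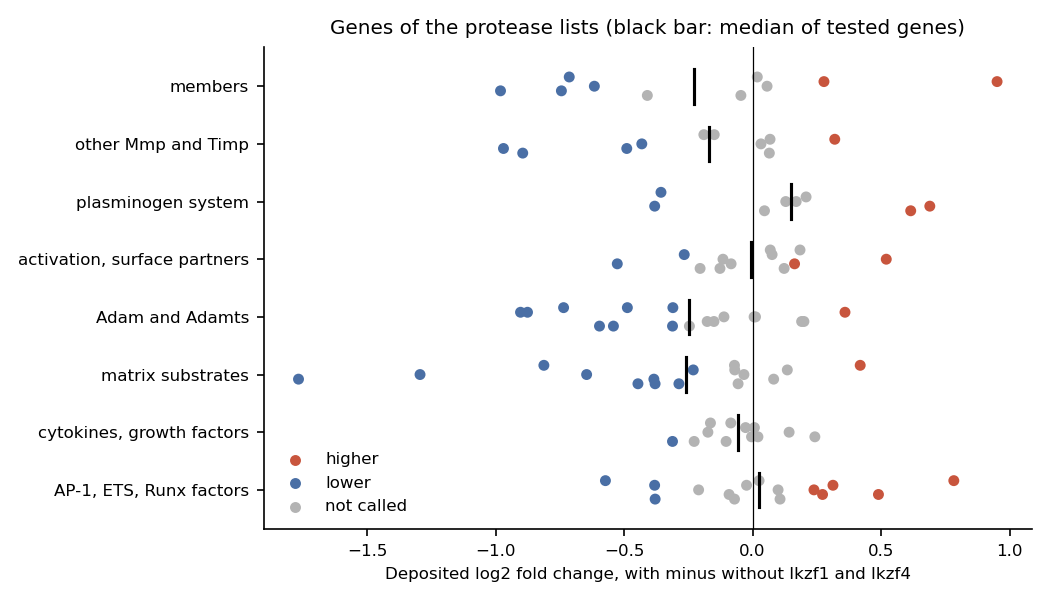
Deposited log2 fold change (horizontal axis) of each tested gene of 8 lists, 1 list per line, with a black bar at the median of each list. The medians run from -0.26 for matrix substrates to 0.15 for the plasminogen system, and the Adam and Adamts and substrate lists hold most of the blue points, the genes called lower.

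Chromatin at the fibroblast loci was not analysed here. The fibroblast ATAC-seq peak lists reach position 197160924 on chromosome 1, past the last fragment position of the mm10 multiome libraries (195371609), so they are on another build, and mm9, which the submitters' processing notes name beside mm10, has no gene positions among the tables used here.

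The multiome libraries, with 52119123 fragments for the control and 29358834 for Ikzf1/4, were read at the same genes. With 1 library per group there is no test. Windows of the gene and 2 kb on each side were compared by fragments scaled to the library total (CPM), with 95% intervals that cover counting error only. None of the 10 members differed by more than 1.5-fold, a size that 3.21% of 19997 gene windows exceeded. The median ratio of Ikzf1/4 to control over these windows was 1.06, and 90% of them lay between 0.742 and 1.33. Mmp2 had the highest ratio of the members, 1.34 (interval 1.22 to 1.46, from 22.9 to 30.6 CPM). The chromosome 9 members Mmp10 (0.726, 0.555 to 0.942), Mmp13 (0.727, 0.566 to 0.927) and Mmp3 (0.779, 0.609 to 0.989) had the lowest. Timp2 (0.915, 0.856 to 0.977) and Mmp9 (1.06, 0.942 to 1.19) lay between them. The low ratios were not particular to these members of the chromosome 9 cluster. Its other genes also lay below 1, from Mmp1a (0.594, 0.461 to 0.759) to Mmp20 (0.910, 0.8125 to 1.018). Of these, Mmp1a and Mmp1b (0.643, 0.494 to 0.831) differed by more than 1.5-fold. The windows of Mmp3, Mmp10 and Mmp13 held 3.9 to 4.5 CPM in the control, beside a median of 18.6 over these gene windows. Off chromosome 9, Mmp21 (5.5 CPM in the control) was also low, at 0.746, while Timp1 (3.5 CPM) was at 0.936. Windows of like level were not compared as a set.

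In barcodes with at least 3000 fragments, 1964 of the control and 762 of Ikzf1/4 with 3 barcodes in common, 5 of the 10 members lay on the other side of 1 from their ratio over all barcodes. Mmp10 (1.34, interval 0.8365 to 2.145), Timp1 (1.42, 0.938 to 2.15) and Mmp19 (1.19, 0.848 to 1.67, from 0.925) lay above 1. Timp3 (0.913, 0.836 to 0.997, from 1.04) and Mmp9 (0.967, 0.823 to 1.14, from 1.06) lay below. Of these intervals only that of Timp3 left out 1. The ratios of Mmp14 (0.699, 0.587 to 0.832) and Timp2 (0.786, 0.719 to 0.858) lay further below 1. A median ratio over all gene windows was not computed for these barcodes. Timp1 lies on chromosome X. That chromosome held 28694 CPM in the control and 23785 CPM in Ikzf1/4 in these barcodes, and 40498 and 27658 CPM over all. In promoter windows Timp2 had the most fragments of the 7 members with a promoter, 346 and 187, and Mmp13 had 1 and 5. Per the file headers the run names carry a time of 48 h, which the labels do not give. The labels also name no tissue for the Ikzf1/4 library, so the cells of these libraries may differ and no change is read from them.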

How the data were processed

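RNA-seq of 6 fibroblast libraries and multiome chromatin data of 2 libraries were used. Per the labels, the RNA files are salmon estimates for transcripts of poly(A) RNA, for which the authors deposited estimated counts and TPM. The authors deposited a gene table, made with DESeq2 per the submitters' processing notes, with a mean normalised signal, a log2 fold change with its SE, a score and p-values. The fibroblast peak lists came from MACS2 per the submitters' processing notes. Of these lists only the chromosome positions were read, and the score, the fold (ratio) and the -log10 values that the authors deposited there were not used. Per the file headers, the multiome files hold counts of fragments per barcode from cellranger-arc 2.0.1. Versions of salmon and DESeq2 as run by the authors were not given in the sources used here.

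A test planned per gene could not be run on all genes, because no file pairs transcripts with genes, and it was run per transcript. The salmon estimates, rounded, went through filterByExpr and TMM scaling into edgeR's quasi-likelihood F test (edgeR 4.0.16 in R 4.3.3). The SE printed with edgeR values is the absolute log2 fold change divided by the square root of the F statistic. It is thus not the same measure as the SE of DESeq2. P-values were adjusted over all tested transcripts by the Benjamini-Hochberg method, and calls were made under 0.05. The alternatives used limma 3.58.1 and DESeq2 1.42.0. The edgeR script was tested on simulated data with less spread between libraries than these data have. That test does not give the power or error rate for the members. The match of transcripts to genes first took the authors' size factors from genes with 1 read in 1 library, then applied average transcript lengths. Of 720 orders of the libraries, the best matched 1653 transcripts and the next best 7. A pair of transcripts also had to meet the deposited log2 fold change, divided by the factor estimated from its SE, within 0.01. Of 17803 genes with a mean over 2, 4181 were matched by 1 transcript.

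The members, the 7 gene lists and the marker lists were chosen with earlier results of these data known. All members are named. Of each list, the called genes are named, up to the 4 largest in each direction, and genes whose libraries do not overlap with an absolute log2 fold change over 1, beside genes of known role that were not called. Single-cell RNA libraries, and multiome RNA, were not analysed here. In the plasminogen list 1 gene is not reported here and was left out of its counts. Promoters come from RefSeq (GRCm38.p6).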

Additional observations from a re-analysis of the deposited data

How the results depend on the processing

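Over all transcripts edgeR called 3095, DESeq2 7529, edgeR without a filter on low counts 1849, and edgeR without 1 library 728 to 1701. Of the 8 member transcripts edgeR called 3, DESeq2 5, and 1 was called without the filter, by limma on log2(TPM + 0.1) and on log2(TPM + 1), and without each library in turn (1 in all 6 cases), each time the shorter Timp2 transcript. Mmp13 and Mmp9 kept their direction under all alternatives. Their log2 fold changes were smallest by limma on log2(TPM + 1), at -0.74 and -0.65, beside -1.36 and -0.85 in edgeR's main fit. Mmp10 ranged from -0.42 to 0.20 without 1 library, and turned to 0.09 without Brn2 and Myt1l replicate 1 and to 0.20 without replicate 2 of the group with Ikzf1 and Ikzf4. With other size factors and with length offsets edgeR called 3 of the member transcripts, as before. With the reads of transcripts summed per gene, not scaled to length, edgeR called 2 of the 6 matched members, Mmp9 and Mmp13, and not Timp2 (adjusted p 0.0602). The labels give replicate numbers but do not say that they mark a shared culture, and the deviations of same-numbered libraries had correlations of -0.0213, -0.0045 and 0.0001, so the numbers were not taken as pairs. With the replicate number as a block edgeR called 8 transcripts in all and 0 of the members, with an adjusted p of 0.0579 for the shorter Timp2 transcript. In the authors' deposited table, asking for an absolute log2 fold change over 0.5 as well, chosen after seeing the data, left 1715 of 5133 genes and 5 of the 6 called members, without Timp2. It left 2 of 5 called other Mmp and Timp genes, 2 of 4 of the plasminogen list, 2 of 4 surface partners, 5 of 9 Adam and Adamts genes, 4 of 10 substrates, 0 of 1 cytokine and 2 of 8 transcription factors. Mmp24 kept its direction under all alternatives and lost its edgeR call without the filter (adjusted p 0.0815) and with the block (0.120). By limma it was not called on log2(TPM + 0.1) (adjusted p 0.0591) but was on log2(TPM + 1) (0.0456). The log2 fold change in the latter was -0.45, beside -1.56 in edgeR's main fit. Summed Mmp and Timp TPM were not run, because 4 members have no per-library values, and the alternatives for fibroblast peaks were not run, because the positions of genes on their build were not at hand. Depth limits Mmp3 and Mmp10 most, at 16.0 to 44.0 reads per library.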
